A study of Homo sapiens with 9 samples.

Results

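FOXA1, GATA2, GRHL2 and SPDEF are transcription factors of luminal epithelial cells, studied here in LNCaP, an established human prostate cancer cell line of luminal type. Regions were taken by position alone, namely every listed region within 50 kb of the hg19 interval of each gene. FOXA1 lay on chromosome 14 from 38058757 to 38064325, GATA2 on chromosome 3 from 128198265 to 128212030, GRHL2 on chromosome 8 from 102504660 to 102681952 and SPDEF on chromosome 6 from 34505579 to 34524110. Of the 335291 regions in the 6 lists, 139 met this rule. They came from chromatin immunoprecipitation with sequencing of EZH2, acetylated lysine 27 of histone H3 (H3K27ac) and trimethylated lysine 27 (H3K27me3). All cells were LNCaP grown with 10% serum. The control cells are labelled plko.1, the name of a lentiviral vector, and the shEZH2 cells received a lentivirus that knocks down EZH2 and were fixed 2 to 3 days later. The number of hairpin sequences is not given in the sources used here. A target was precipitated with the same antibody in both. Each of the 6 groups was 1 library, so the spread between libraries of a group is unknown, every difference below lacks a replicate check, and intervals cover counting error only. Libraries held 13331155 to 33289172 tags (reads counted by the peak caller), and values are normalised tags, scaled to 10000000 tags per library.

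FOXA1 is a forkhead pioneer factor that opens chromatin for the androgen receptor. GATA2 is a zinc finger factor that binds with FOXA1 and the receptor at many prostate enhancers. GRHL2 is a grainyhead factor that maintains epithelial gene expression, and SPDEF is an ETS family factor of prostate and other secretory epithelia. EZH2 is the enzyme of Polycomb repressive complex 2 that places H3K27me3 on silenced genes, whereas H3K27ac marks active promoters and enhancers. Acetyl and methyl groups cannot sit on the same lysine 27. By its title, the series concerns an activating role of EZH2 apart from Polycomb and methylation.

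The sequences just upstream of the gene starts are shown because strong H3K27ac regions covered the starts, and because the 3 sequences differ in CpG content. Each is the 250 bases before the start from RefSeq, 5′ to 3′ on the gene's strand, with CpG dinucleotides in capitals. The FOXA1 sequence is chr14:37595250-37595499, the GATA2 sequence chr3:128493202-128493451 and the SPDEF sequence chr6:34556330-34556579, all on the minus strand of GRCh38.p14. These positions belong to another build than the hg19 regions below and were not converted. 3 of the 4 genes matched an entry.
FOXA1: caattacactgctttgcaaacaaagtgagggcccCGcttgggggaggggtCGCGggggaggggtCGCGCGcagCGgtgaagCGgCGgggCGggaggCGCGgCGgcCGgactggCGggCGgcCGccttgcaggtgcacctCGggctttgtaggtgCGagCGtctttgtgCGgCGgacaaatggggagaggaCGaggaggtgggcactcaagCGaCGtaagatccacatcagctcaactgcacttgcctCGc
GATA2: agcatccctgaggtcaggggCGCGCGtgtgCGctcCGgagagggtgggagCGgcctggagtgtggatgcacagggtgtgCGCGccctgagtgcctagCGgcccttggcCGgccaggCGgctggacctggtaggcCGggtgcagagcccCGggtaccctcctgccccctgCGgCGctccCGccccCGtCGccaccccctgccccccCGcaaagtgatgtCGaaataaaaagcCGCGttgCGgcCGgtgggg
SPDEF: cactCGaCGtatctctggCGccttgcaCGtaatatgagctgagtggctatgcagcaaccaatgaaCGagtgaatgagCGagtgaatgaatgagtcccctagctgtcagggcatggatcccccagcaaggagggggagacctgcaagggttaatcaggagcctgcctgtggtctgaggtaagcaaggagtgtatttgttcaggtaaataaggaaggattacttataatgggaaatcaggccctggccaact
The FOXA1 sequence held 26 CpG dinucleotides, and 19.6% of the 35116 RefSeq promoter entries held at least as many in the same 250 bases. The GATA2 sequence held 24, reached by 23.7% of entries, and its second annotated start, inside the gene, had 18 before it. SPDEF differed from these 2, with 6 CpG dinucleotides, reached by 61.9% of entries, against a median of 11 over all entries. A forkhead motif, TGTTTGC, occurred once in the FOXA1 sequence and another form, TATTTAC, once in the SPDEF sequence, both on the opposite strand. On either strand these letters were found in 3.23% and 2.39% of all entries. The forkhead form TGTTTAC, the GATA motif AGATAA, the grainyhead motif AACCGGTT and the ETS forms CCGGAA and CCGGAT were not found on either strand of the sequences of the 3 genes, which says only that these letters are not in the windows.

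All 4 gene starts lay inside H3K27ac regions that ranked near the top of the control list. The region over the GATA2 start, from 128203822 to 128212857, held 2186.6 normalised tags in control, rank 45 of 58134 regions. The FOXA1 region, from 38059434 to 38069699, held 1933.1 tags at rank 52. It reached 5.37 kb upstream of the start and covered 87.8% of the gene. The GRHL2 region, from 102503462 to 102508401, held 1331.6 tags at rank 117, and was the densest of the 4 at 270 tags per kb. The SPDEF region, from 34518631 to 34524894, held 1098.2 tags at rank 182. All 4 were thus within the uppermost 0.313% of the list, whose median region held 19.5 tags. SPDEF had the lowest value of the 4, at 175 tags per kb.

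**Figure D1:**
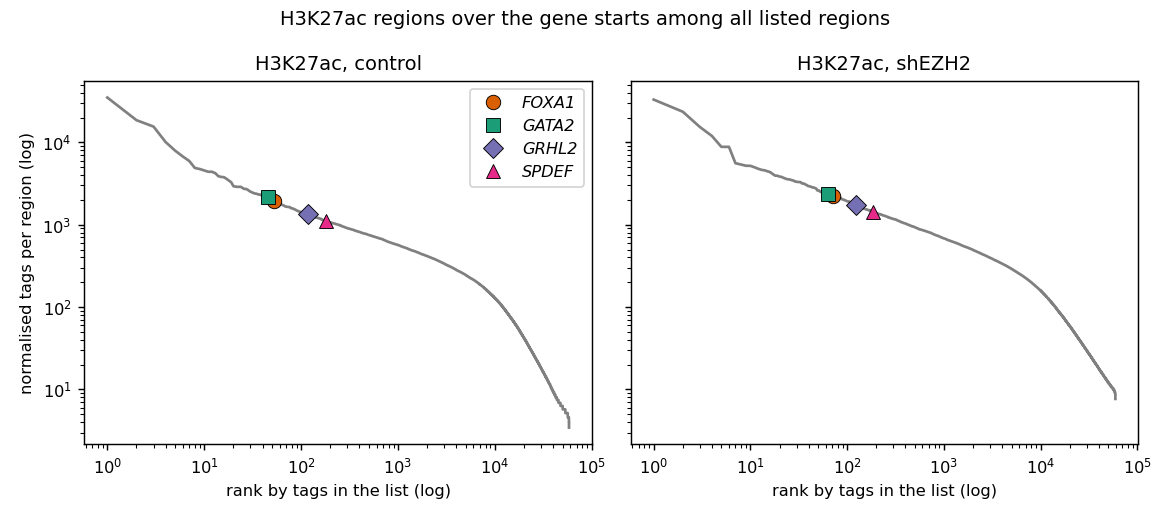
Normalised tags per H3K27ac region (vertical log axis) against rank by tags in its own list (horizontal log axis), for control (left) and shEZH2 (right). Grey lines show all listed regions and symbols the regions over the 4 gene starts, at ranks 45 to 182 in control and 63 to 184 in shEZH2.

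The same 4 starts were inside strong H3K27ac regions in shEZH2 cells. The regions held 2338.2 tags at GATA2, 2242.1 at FOXA1, 1738 at GRHL2 and 1431.8 at SPDEF. Their order by tags was the same as in control, and their ranks among 59233 regions were 63, 72, 124 and 184. The lists differ in length and were called with different windows, so these ranks cannot tell whether H3K27ac changed. The shEZH2 regions were also wider, at 14729 to 27615 bp against 4939 to 10265 bp in control. The authors called control H3K27ac with 150 bp windows and shEZH2 H3K27ac with 1000 bp windows, so widths and numbers of regions cannot be compared between the groups.

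Around the starts, H3K27ac was arranged differently at each gene. GATA2 had 5 control regions, and the one over the start held 90.7% of the listed tags within 50 kb. FOXA1 had 29 control regions, of which 24 lay beyond the 3′ end of the gene. The start region and its neighbours from 38052445 to 38055914 and from 38056305 to 38058912, with 423.2 and 417.5 tags, formed an almost unbroken stretch, and 19 of the 29 regions were small ones under 20 tags. GRHL2 had 37 control regions, 31 of them within the gene, which is by far the longest of the 4. SPDEF had 12, and its strongest was not at the start: the region from 34559957 to 34572165, 35.8 kb or more upstream, held 1661.9 tags. In RefSeq (GRCh38.p14), GATA2-AS1 overlaps GATA2 and GRHL2-DT overlaps GRHL2, while MIPOL1 and TTC6 neighbour FOXA1, NCALD neighbours GRHL2 and PACSIN1 and ILRUN neighbour SPDEF, so a region near a member need not belong to it. No exon or intron annotation of hg19 was used.

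The 4 neighbourhoods, 615 kb in all, were rich in H3K27ac compared with the genome. Control H3K27ac regions occurred at 135 per Mb there, against 19 per Mb over the chromosomes. They covered 16.8% of the sequence, against 1.54%. Per gene, coverage was 27.4% at SPDEF, 25.1% at FOXA1, 11.5% at GRHL2 and 10.8% at GATA2.

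**Figure D2:**
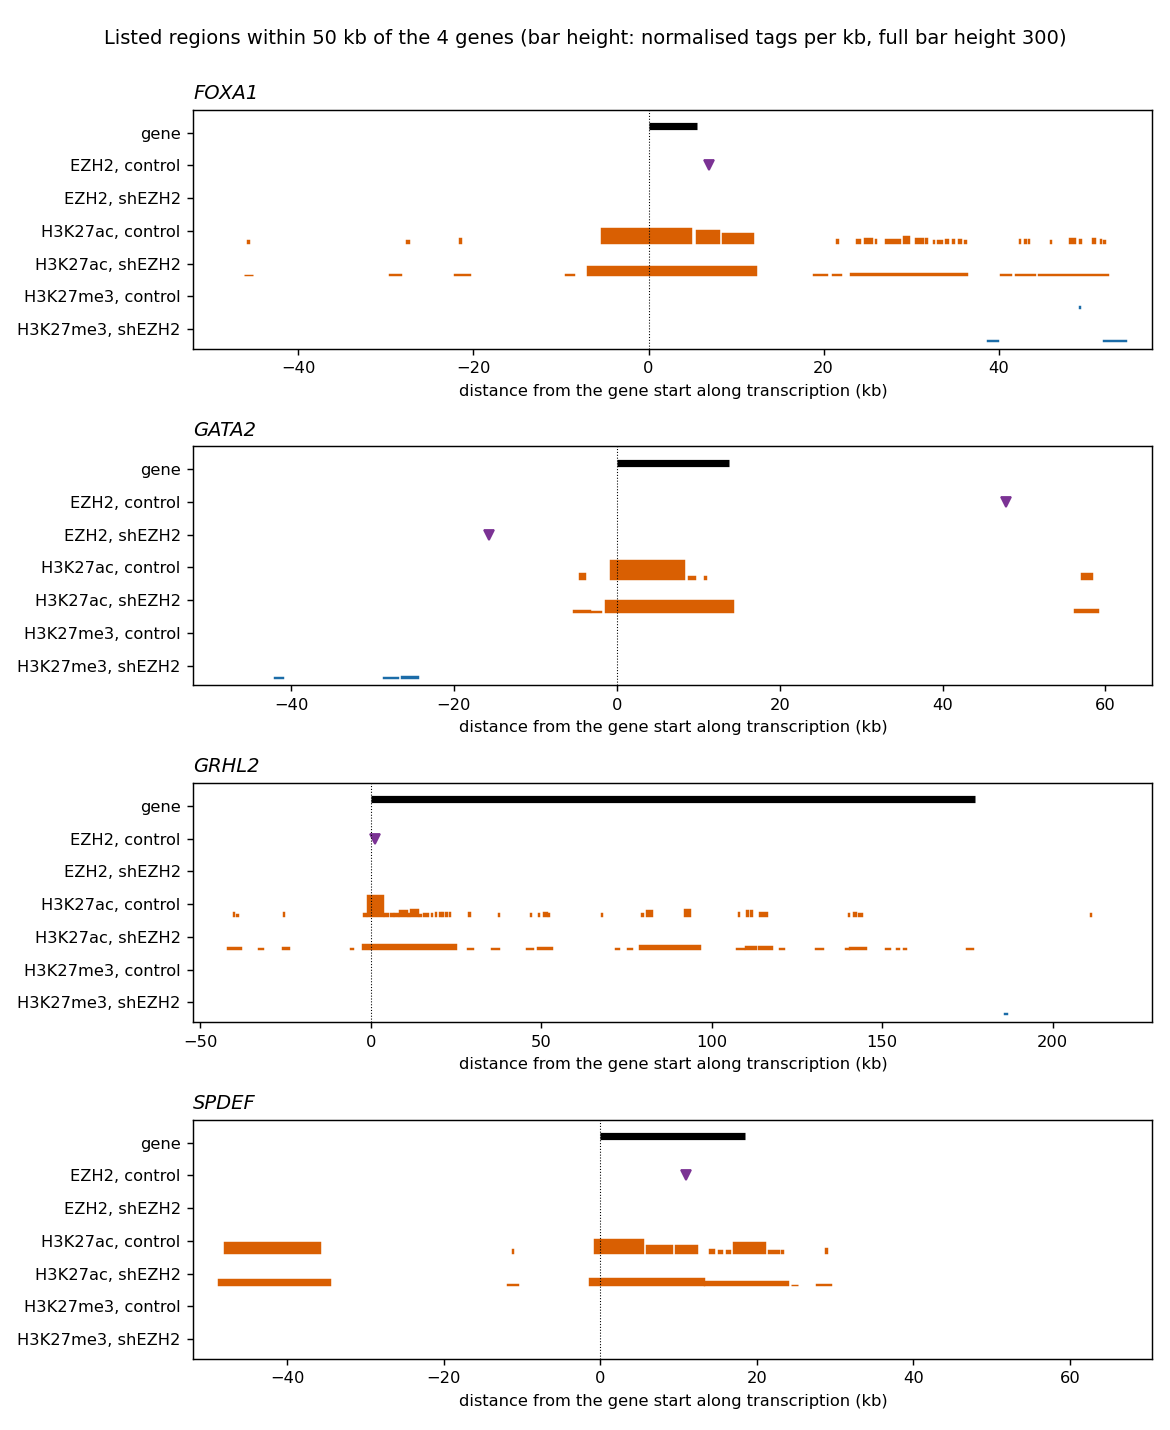
Listed regions around each gene, plotted by distance in kb from the gene start along the direction of transcription, with 1 row per library. Triangles mark EZH2 peaks, bars mark histone regions with height proportional to normalised tags per kb (full bar height 300), and the black bar is the gene. H3K27ac covered every start in both groups, and H3K27me3 was confined to 1 control and 6 shEZH2 regions.

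EZH2 peaks were about as frequent near these genes as over the whole control list. Control cells had exactly 1 listed EZH2 peak near each gene, or 6.5 per Mb, close to the 7.56 per Mb of the whole list on the chromosomes. The FOXA1 peak, on chromosome 14 from 38057382 to 38057564, lay 1.19 kb beyond the 3′ end of the gene and held 10.5 normalised tags (95% exact Poisson interval 5.74 to 17.6). The GRHL2 peak, on chromosome 8 from 102505966 to 102506148, lay 1.31 kb inside the gene and held 11.3 tags (6.3 to 18.6). It was the only one inside a region over a gene start. The SPDEF peak, on chromosome 6 from 34513103 to 34513285, lay in the gene 10.8 kb from the start and held 8.25 tags (4.12 to 14.8). The GATA2 peak, on chromosome 3 from 128164195 to 128164377, lay 33.9 kb beyond the 3′ end and held 6.75 tags (3.09 to 12.8). The intervals of all 4 overlapped, so their order was not resolved at this depth. The next peaks outside the limit of 50 kb were 52.8 kb from GATA2, with 10.5 tags, and 53.6 kb from GRHL2, with 9.

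These were ordinary or weak peaks of the list. Tags were fewer at 56.5% of control EZH2 peaks than at GRHL2, at 49.6% than at FOXA1, at 18.8% than at SPDEF and at 2.18% than at GATA2. The authors' fold over the local background was 10.06 at GRHL2, 8.63 at FOXA1, 7.38 at SPDEF and 6.11 at GATA2, where 4 was required and the list's median was 8.25. The deposited score was 9 at FOXA1, GATA2 and SPDEF, the lowest in the list, and 12 at GRHL2.

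The 3 peaks at FOXA1, GRHL2 and SPDEF lay in control H3K27ac regions, and none of the 4 lay in H3K27me3. Over the whole control list, 34.4% of EZH2 peaks lay in H3K27ac and 44.2% in H3K27me3. The FOXA1 peak was in the neighbouring region of 417.5 tags, not in the one over the start. The GRHL2 peak was in the start region of 1331.6 tags, and the SPDEF peak in a region of 274.1 tags from 34511784 to 34514566. The GATA2 peak had no mark in either group, and the nearest control H3K27ac was 9.12 kb away. In the shEZH2 lists, where the same 3 places lay in H3K27ac and none in H3K27me3, the shares over all control EZH2 peaks were 41.8% and 56.3%. Seen from the H3K27ac side, 3 of 83 control regions near the genes held an EZH2 peak, where 12.3% of all control H3K27ac regions did. Of the 5 with at least 1000 tags, only the GRHL2 start region held one, where 59.6% of 240 such regions in the whole list did. In shEZH2, none of the 44 H3K27ac regions near the genes held a shEZH2 EZH2 peak, against 5.32% of that list and 34.0% of its 426 regions with at least 1000 tags. The control regions over the FOXA1, GATA2 and SPDEF starts thus carried strong H3K27ac with no listed EZH2 peak.

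After knockdown, none of the 4 control EZH2 peaks was called again. Over the whole list 23.1% of control peaks were, but only 4.18% of the 5001 peaks with a score of 9 and 13.5% of the 1967 with a score of 12, so 0 of 4 was near the background for peaks of their scores. No shEZH2 peak was listed within 50 kb of FOXA1, GRHL2 or SPDEF, where the nearest were 392, 286 and 393 kb from the genes. The shEZH2 list is sparse, with 3.07 EZH2 peaks per Mb over the chromosomes and 1.63 per Mb near the 4 genes. Absence at these 3 genes thus does not set them apart. GATA2 had 1 shEZH2 peak at another place, on chromosome 3 from 128227636 to 128227786, 15.6 kb upstream of the start, with 6.89 tags (3.3 to 12.7) and no control peak. It was 13.05-fold over its local background and lay in neither mark in either group. Over the whole shEZH2 list, 56.2% of EZH2 peaks overlapped a control peak and 39.7% lay in shEZH2 H3K27ac. The callers' thresholds equal 6.75 normalised tags in the 183 bp control window and 6.89 in the 151 bp shEZH2 window. The interval of each control peak reached below both, so a loss of EZH2 at these places was not detectable at this depth.

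**Figure D3:**
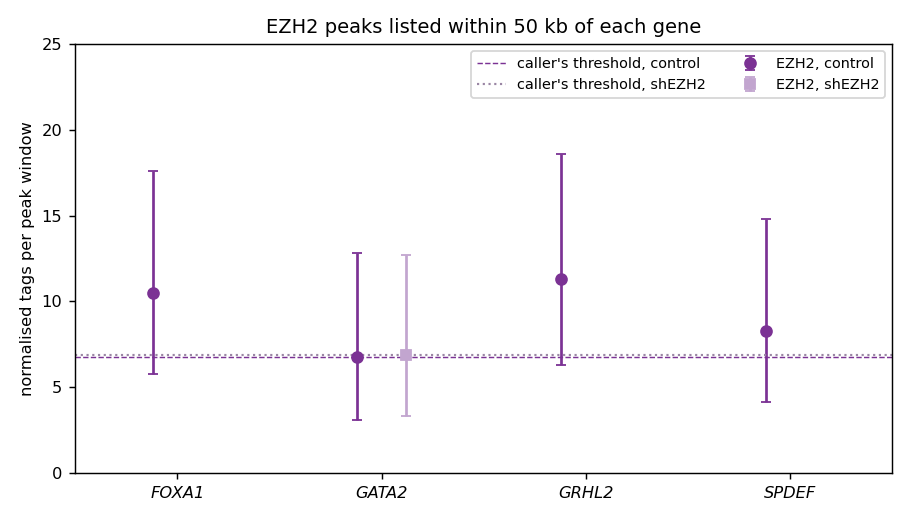
Normalised tags per peak window (vertical axis) of the EZH2 peaks listed within 50 kb of each gene, with 95% exact Poisson intervals. Circles are control and the square shEZH2, dashed and dotted lines mark the callers' thresholds, and every interval crosses both lines.

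H3K27me3 was nearly absent near the 4 genes in control cells. The only control region was at FOXA1, from 38014983 to 38015133, 43.6 kb beyond the 3′ end, with 3.91 tags, equal to the caller's threshold. The nearest control H3K27me3 region was 508 kb from GATA2, 330 kb from GRHL2 and 376 kb from SPDEF. The density near the genes was 1.63 regions per Mb, against 28.3 per Mb over the chromosomes.

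In shEZH2 cells 6 H3K27me3 regions were listed near the genes, none over a start. This was 9.75 regions per Mb, against 32.8 per Mb over the chromosomes. They covered 1.59% of the sequence, against 8.12%, so the neighbourhoods were poor in listed H3K27me3 in shEZH2 too. The control region at FOXA1 was not called, where 94.1% of the control list was. That share covers regions of all strengths, with a median of 6.31 tags, against 3.91 at FOXA1. A share for regions as weak as this one is not given here. Of the 6 shEZH2 regions, GATA2 had 3, with 30.1, 22.5 and 9.15 tags, from 24.5 kb to 41 kb upstream. FOXA1 had 2 beyond its 3′ end, with 12.6 and 25.9 tags. GRHL2 had 1, with 11.4 tags, 8.33 kb beyond its 3′ end, and SPDEF had none within 268 kb. None of the 6 overlapped a control H3K27me3 region, as was the case for 63.2% of the whole shEZH2 list. Their densities were 9.15 to 14.7 tags per kb, under the control threshold of 26 per kb and near the shEZH2 threshold of 9.53 per kb. The 2 thresholds apply to windows of 150 and 1000 bp, so whether such signal was present in control cannot be told from the lists.

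H3K27ac was compared between the groups at equal places, through each shEZH2 region and the control regions lying wholly inside it. As the shEZH2 region also counts tags between the control regions, a value below 0 for log2 of its tags over theirs means fewer normalised tags at these places, and a value above 0 shows nothing by itself. At the FOXA1 start, 3 control regions held 2773.8 tags in all and the enclosing shEZH2 region, from 38052003 to 38071334, held 2242.1, a log2 ratio of -0.31 (95% interval -0.36 to -0.25). This stretch holds the control EZH2 peak of FOXA1. The GRHL2 and SPDEF stretches given next also hold the control EZH2 peaks of those genes, and the GATA2 stretch holds none. At FOXA1 and SPDEF the peak lay outside the control region over the start. The share of enclosing regions in the whole list that hold a control EZH2 peak is not given here. Whether the ratios relate to EZH2 peaks was not tested. At the GRHL2 start, 16 control regions held 2031.2 tags and the shEZH2 region, from 102502073 to 102529688, held 1738, a log2 ratio of -0.22 (-0.29 to -0.16). At the SPDEF start, the values were 1690.6 tags in 3 control regions and 1431.8 in the shEZH2 region from 34510893 to 34525622, a log2 ratio of -0.24 (-0.31 to -0.17). At the GATA2 start, 3 control regions held 2230.7 tags and the shEZH2 region, from 128197806 to 128213435, held 2338.2, a log2 ratio of 0.07 (0.01 to 0.13) that turned to -0.29 when tags were scaled to those in listed regions, which shifts every ratio by -0.35. Its control regions left 5.58 kb of that stretch unlisted, and with windows just short of the threshold there control could hold up to 2410 tags, so fewer tags in shEZH2 at GATA2 were neither shown nor excluded.

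SPDEF had lower H3K27ac in shEZH2 at 2 further places. Over the 3′ end of the gene, 6 control regions held 706 tags and the shEZH2 region from 34500144 to 34510883 held 566.8, a log2 ratio of -0.32 (-0.43 to -0.20). The strong region upstream of SPDEF held 1661.9 tags in control and 1239.7 in shEZH2, from 34558678 to 34573015, a log2 ratio of -0.42 (-0.50 to -0.35). This was the one pair near the genes of similar width, 12208 and 14337 bp, and its density was 136 tags per kb in control and 86.5 in shEZH2. The shEZH2 region still held 2.13 kb outside the control region, so the 2 densities are not of the same sequence. Per kb, 27 of 27 enclosing regions near the genes were lower in shEZH2. Each is wider than the control regions inside it and includes sparser sequence, so this count does not show a loss. The same share over the whole list is not given here. No EZH2 peak was listed at this upstream region in either group.

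Set beside the whole list, these values were on the low side but not apart from it. Near the 4 genes, 27 shEZH2 H3K27ac regions enclosed control regions, and 10 of them had fewer tags than the control regions inside, where 14.5% of the list did. The share depends on strength: with at least 1000 control tags, 4 of 5 near the genes had fewer tags, against 56.5% of 379 in the list, whose median log2 ratio was -0.05 with quartiles of -0.21 and 0.10. Of these 379 regions, 14.2% had a value at or below that of the FOXA1 start, 20.6% that of the SPDEF start and 21.6% that of the GRHL2 start. For the upstream SPDEF region the share was 5.01%, and for the GATA2 start 70.2%. The interval lay below 0 at 5 regions, namely the FOXA1, GRHL2 and SPDEF starts and the other 2 regions of SPDEF. The share of the whole list with such an interval was not computed. Counting intervals narrow as tags rise, so this count does not set these genes apart from other strong regions. The share of tags in listed regions was 46.12% in the control library and 58.96% in the shEZH2 library. These shares come from lists called with different windows. Scaling to the tags in listed regions shifts every ratio by -0.35. Why the shares differ, and which scaling is nearer the truth, was not tested.

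**Figure D4:**
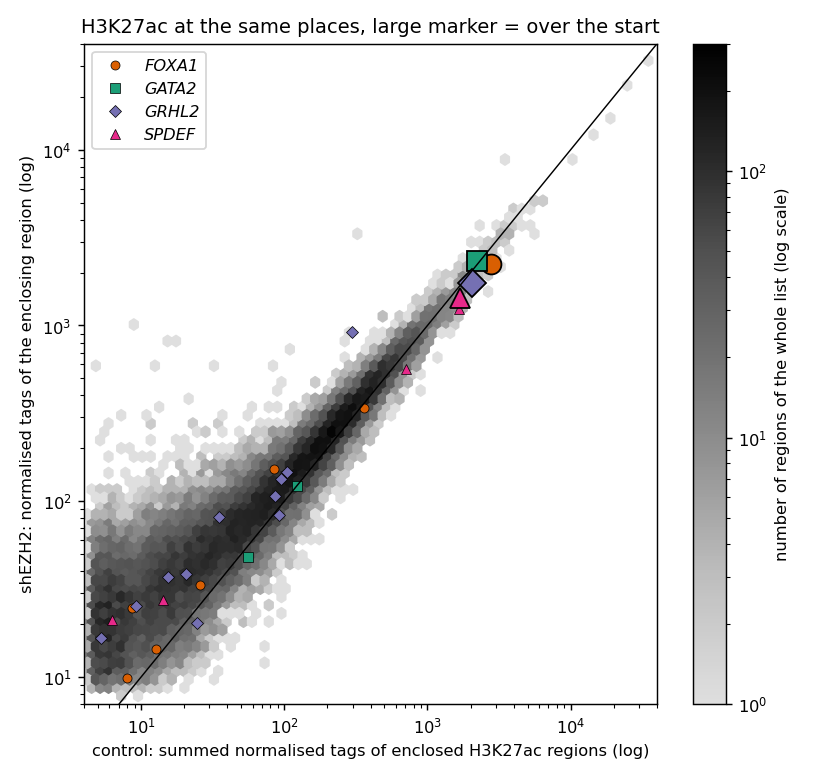
Normalised tags of each shEZH2 H3K27ac region (vertical log axis) against the summed tags of the control regions inside it (horizontal log axis). Grey shows the whole list, symbols the 27 regions near the 4 genes with large symbols over the starts, and points under the diagonal had fewer tags in shEZH2. The FOXA1, GRHL2 and SPDEF starts lie below the line, and 1 GRHL2 region lies far above it at 923.5 against 295.9 tags, as do some other regions of the list.

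One region within GRHL2 had far more tags in shEZH2 than in the control regions inside it. The shEZH2 region from 102583232 to 102601199, 78.6 kb into the gene, held 923.5 tags, and the 3 control regions inside it held 128.5, 150.2 and 17.2 tags, 295.9 in all. The log2 ratio was 1.64 (1.5 to 1.78). The control list left 14 kb of this stretch without a region, and windows just short of the control threshold there could raise control to at most 727 tags, under the shEZH2 value. With tags scaled to those in listed regions, an alternative added after the data were seen, the shEZH2 value was 722 and no longer above this limit. This limit is approximate, as 3.06% of the listed control regions held fewer tags than the threshold. More tags than control could hold in this sense were found in 5.78% of all shEZH2 regions and in none of the other 43 near the genes. A log2 ratio at least as high was found in 15.9% of all enclosing regions, most of them weak, and in 0.0260% of the 11531 with at least 100 control tags, 3 regions with this one included. The bound of 100 tags was chosen after this value was seen. The caller left 94 control windows out as too clonal, and whether any lay here was not tested. Neither EZH2 nor H3K27me3 was listed in this stretch in either group.

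The remaining H3K27ac near the genes was called in both groups for the most part. Of the 83 control regions, 80 overlapped a shEZH2 region, where 97.0% of the whole list did. The 3 others were weak, with 11.5 tags at FOXA1 and 5.16 tags at each of 2 places near GRHL2. In the other direction 16 of the 44 shEZH2 regions had no control region, against 41.0% of the list, and these held 9.47 to 33.8 tags, with 10 of them near GRHL2. Summed over all listed regions near a gene, control and shEZH2 held 3285.4 and 2881.8 tags at FOXA1, 2409.6 and 2522.7 at GATA2, 2830.6 and 3537.4 at GRHL2, and 4079.1 and 3297.8 at SPDEF. FOXA1 and SPDEF thus had fewer listed tags in shEZH2, and GATA2 and GRHL2 had more. The GRHL2 sums include the region within the gene with 295.9 tags in control and 923.5 in shEZH2. The GRHL2 start stretch went the other way, with 2031.2 and 1738 tags. The listed length in control and shEZH2 was 26.5 and 52.1 kb at FOXA1 and 32.5 and 44.3 kb at SPDEF. At GRHL2 the listed length was 31.9 and 93 kb and at GATA2 12.2 and 21.9 kb. Over the whole lists on the chromosomes the listed length was 46400 and 147000 kb, with summed tags of 4.54e+06 and 5.80e+06. As the lists were called with different windows, the lengths cannot be compared between the groups. A higher sum of listed tags does not by itself show more H3K27ac.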

How the data were processed

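The submitters' processing notes name BWA 0.6.1, HOMER 4.1 and hg19. Per the file headers, each library was called alone, without input. EZH2 lists hold windows of 1 width, at a false discovery rate of 0.001 and 4-fold or more over the 10 kb around. Control histone lists stitch 150 bp windows at that rate. The shEZH2 histone lists stitch 1000 bp windows at a Poisson probability of 0.001, per the file headers. The signal the authors deposited counts a region's tags, scaled to 10000000 tags per library. The deposited score comes from the caller unscaled, and the deposited fold sets tags against the local background. The deposited clonal ratio, focus fraction and local p-value were not used here.

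Samples were grouped by title. 3 further samples were not analysed here. A region counted as near a gene within 50 kb of its interval, and overlap meant 1 shared bp. Tags were recovered from normalised values and library totals, with 95% exact Poisson intervals. Intervals of log2 ratios are normal approximations from both tag totals. PCR repeats are not independent molecules, so all intervals cover counting error only. No p-value was computed. Every EZH2 peak, and the histone region over the start and the strongest one near each gene, were to be named, and other regions were named after their values were seen. Starts are the 5′ ends of the gene intervals, with strands from RefSeq for 3 genes and from general knowledge for GRHL2. A wider list of luminal genes could not be placed for want of an hg19 annotation and was not used here. Members, lists and comparisons were chosen with earlier results of these data known, and the limit on control tags in unlisted stretches was added after the data were seen. Counting of overlaps was tested on simulated data. Alternatives changed the distance to 20 or 100 kb, kept the upper 50% by score or equal numbers of regions, and changed the overlap, the width correction and the scaling. Computation used Python 3.11.15 with pandas 2.3.3, numpy 2.4.6 and scipy 1.17.1, and plots matplotlib 3.10.9.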

Additional observations from a re-analysis of the deposited data

How the results depend on the processing

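The number of EZH2 peaks called again was 0 with other overlaps and distances, and so was the number in H3K27me3. With the upper 50% by score only 1 control peak was left, and in lists of equal length 0, so these lists say nothing on how stable that is. The number in H3K27ac was 3, or 4 of 7 within 100 kb and 1 of 1 in the upper 50% by score. Control EZH2 peaks numbered 7 within 100 kb, 1 in the upper 50% by score and 0 in lists of equal length, and the shEZH2 peak at GATA2 was not in the upper 50% (0). H3K27ac regions numbered 54 within 20 kb in control, and in the upper 50% by score 42 in control and 19 in shEZH2. H3K27me3 regions numbered 0 in control both within 20 kb and in the upper 50%, and in shEZH2 1 within 20 kb and 2 in the upper 50%. The H3K27ac log2 ratios at the starts became lower per kb, at -0.55 for FOXA1, -0.57 for GATA2, -0.87 for GRHL2 and -0.48 for SPDEF, and 27 of 27 enclosing regions were then below 0, as the wider shEZH2 regions include sparser sequence. Scaled to the tags in listed regions, which shifts every ratio by -0.35, they were -0.66, -0.29, -0.58 and -0.59. GATA2, at 0.07 in the report, thus changed sign under both, and under this scaling 0 regions in place of 1 exceeded the limit on control tags. Ratios at shared EZH2 peaks could not be computed, as no peak was shared, nor could H3K27me3 ratios, as no shEZH2 region enclosed a control region. No paired analysis was possible because each group analysed was 1 library. Leaving out a replicate was not possible for the same reason. Control EZH2 peaks held 9 to 15 tags each, which gives wide intervals.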
